A study of Cricetiscus sungorus with 12 samples.

Results

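The genes described here are 10 outputs and regulators of the circadian clock: the PAR bZIP transcription factors Dbp, Tef and Hlf, their antagonist Nfil3, the repressors Bhlhe40 and Bhlhe41, the nuclear receptors Rora and Rorb, and the casein kinases Csnk1d and Csnk1e. They were taken from the tables by their mouse GeneID, and the set was chosen with earlier results of these data known. Of the 10, 9 had a record among the 17191 GeneIDs: Tef (21685), Hlf (217082), Nfil3 (18030), Bhlhe40 (20893), Bhlhe41 (79362), Rora (19883), Rorb (225998), Csnk1d (104318) and Csnk1e (27373). Dbp (13170) is not analysed here.

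The study sequenced polyA RNA from the hypothalamus of 12 adult Djungarian hamsters (Phodopus sungorus), a species that enters spontaneous daily torpor after weeks in short days. LP-NT hamsters had remained in a long photoperiod of 16 h light and 8 h dark and were normothermic (n = 4, 2 males and 2 females). SP-NT hamsters were acclimated to a short photoperiod of 8 h light and 16 h dark and were normothermic (n = 4, 2 males and 2 females), and SP-HT hamsters had the same short photoperiod and were hypothermic in torpor (n = 4, 3 males and 1 female). All were sampled at about ZT 4, that is 4 h after lights on, so each value is a level at a single clock time and no phase or amplitude can be read from it. Hamsters of both SP groups carried a temperature transmitter, while LP-NT hamsters were not implanted, so photoperiod and implantation cannot be told apart.

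In the molecular clock, CLOCK and BMAL1 activate genes through E-boxes, and the PER and CRY proteins they induce repress them in return. DBP, TEF and HLF are made downstream of this loop and activate target genes through D-boxes, where NFIL3 acts as a repressor. BHLHE40 and BHLHE41 (DEC1 and DEC2) bind E-boxes and hold back CLOCK and BMAL1, RORA and RORB compete with the REV-ERB receptors for elements in the Bmal1 gene, and the casein kinases 1 delta and epsilon phosphorylate PER proteins and so set their stability. In the brain the master clock lies in the suprachiasmatic nucleus of the hypothalamus, and the same genes run in many other neurons and glia. The tissue was a whole hypothalamus, so a smaller number of cells of a type and less RNA per cell cannot be told apart.

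Libraries held totals from 20204979 to 24186918 expected counts, and the members held between 114 (Nfil3) and 6111 (Tef) counts in a hamster. LP-NT 01 stood apart from the others. It had 3.1 CPM of Prl against at most 0.046 CPM elsewhere and held 71.4 CPM of Rgs16 against at most 33.9 elsewhere. SP-NT 19 is labelled male but had 0 counts for the Y-linked records Kdm5d and Uty. The 6 other males had 979 to 1699 and 342 to 462 counts. Some results that rest on LP-NT 01 or SP-NT 19, but not all, are also given without that hamster. Of the 13 hypothalamic markers looked at, all had a record, but Agrp (at most 0.57 CPM) and Pmch (at most 0.50 CPM) were near 0. As a check of the temperature labels, Rbm3, an RNA-binding protein induced by cold, averaged 20.6 CPM (SD 4.77) in torpor against 12.5 CPM (SD 1.09) in SP-NT (log2(FC) 0.72, adjusted p = 0.0329, edgeR), while Cirbp, the other cold-inducible one, had a log2(FC) of -0.040 (adjusted p = 0.786). The call of Rbm3 was lost in 6 of 8 fits with a hamster left out (adjusted p between 0.0219 and 0.0943) and in 2 of 9 other settings, with log2(FC) between 0.58 and 0.83 throughout. Rbm3 also separated the 2 normothermic groups, at 7.10 to 9.73 CPM in LP-NT and 11.7 to 14.1 CPM in SP-NT. That photoperiod difference had a log2(FC) of 0.61 to 0.69 in the 9 other settings and passed in 2 of them, but not in edgeR's main test. Rbm3 is therefore a limited check of the temperature labels. Every direction given for torpor rests on the labels SP-HT and SP-NT. The study lists torpor differences with the opposite sign for the genes matched to it, and if the labels of the 2 groups were exchanged, every torpor difference below would change its sign. Kdm5d followed the labelled sex in SP-HT, with 4 counts in female 02 and 1067, 1101 and 1232 counts in males 10, 26 and 33. In SP-NT it had 0 counts in 19, 3 and 2 counts in females 36 and 37 and 1699 counts in male 38. These counts bear on the identity of the hamsters by sex and not on their body temperature. Which of the signs holds was not settled.

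The level of the members spanned a wide range. In TPM, which divides by transcript length and so allows genes to be compared, Csnk1d had the highest mean with 133.6 ± 4.35 TPM (SD, n = 12) and Hlf the lowest with 7.22 ± 1.61 TPM (SD, n = 12). Tef lay next to Csnk1d with 130.2 ± 10.2 TPM, and Csnk1d exceeded it in 9 of 12 hamsters, so these neighbours did not differ beyond their spread. Csnk1e (92.9 ± 8.67 TPM) and Bhlhe40 (81.8 ± 15.0 TPM) followed, with Csnk1e above Bhlhe40 in 10 hamsters. Below them, Bhlhe41 with 53.9 ± 10.3 TPM, Rora with 38.6 ± 11.7 TPM and Rorb with 17.3 ± 3.21 TPM kept this order in all 12 hamsters. The repressor Nfil3 and the activator Hlf were the least abundant. Nfil3 with 9.80 ± 2.12 TPM exceeded Hlf in 10 of 12 hamsters and lay below Rorb in 11. Among the PAR bZIP factors with a record, Tef was in each group far above Hlf, at a ratio of 19.0 ± 6.90 (SD, n = 4) for LP-NT, 19.0 ± 3.47 for SP-NT and 18.5 ± 2.17 for SP-HT.

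**Figure D1:**
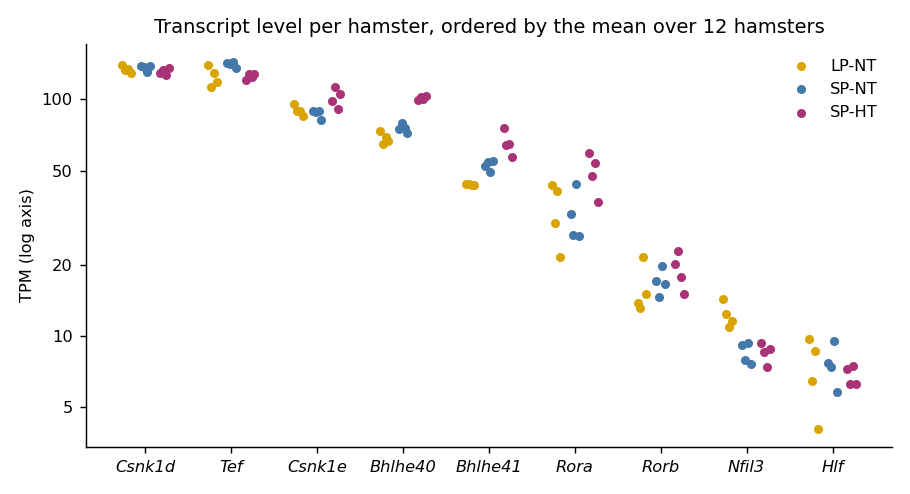
Deposited TPM of the 9 members on a log axis, 1 dot per hamster, coloured by group (LP-NT, SP-NT, SP-HT) and ordered from left to right by the mean over 12 hamsters. Csnk1d (mean 133.6 TPM) and Tef (130.2 TPM) overlap, and Nfil3 and Hlf are the lowest.

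Torpor was examined by comparing SP-HT with SP-NT, both in short photoperiod and sampled at the same clock time. The E-box repressors Bhlhe40 and Bhlhe41 were higher in the hamsters labelled SP-HT, and the other 7 members did not pass the test. Normalized counts (CPM, scaled by TMM) are given below in the order of the replicate numbers, LP-NT 01, 02, 03 and 05, SP-NT 19, 36, 37 and 38, and SP-HT 02, 10, 26 and 33. Of 16195 genes tested with edgeR's quasi-likelihood test and Benjamini-Hochberg adjustment, 389 or 2.4% passed an adjusted p of 0.05 and 82 or 0.506% passed it with a higher level in SP-HT. Of the 9 members tested, 2 passed and both were higher, and the groups did not overlap for 4, against 12.1% of all genes. An unadjusted p under 0.05 was reached by 5 members. The share of all genes with an unadjusted p under 0.05 was not counted in any comparison, so counts at that level cannot be set against it. The median log2(FC) of the members was 0.20, beside -0.0027 over all genes.

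Bhlhe40, the repressor also called DEC1, stood at 84.1, 90.3, 84.8 and 81.3 CPM in SP-NT and at 116, 121, 119.9 and 117 CPM in SP-HT. Every torpid hamster was well above every normothermic one, and the coefficient of variation among the torpid hamsters was 1.87%. The difference, higher in the samples labelled SP-HT, was 1.39-fold, a log2(FC) of 0.47 ± 0.046 (SE; 95% interval 0.37 to 0.58) with an adjusted p of 0.00214. It passed the threshold in all 9 other tests and settings and with each hamster left out, with log2(FC) between 0.46 and 0.50. Without SP-NT 19 it was 0.47 (adjusted p = 0.0133). The study itself reports Bhlhe40 as downregulated in torpor, the opposite of the direction given by the labels used here. Which direction holds was not settled.

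Bhlhe41, its paralogue DEC2, stood at 111, 111, 102 and 102 CPM in SP-NT and at 121, 137, 145 and 121 CPM in SP-HT. The groups did not overlap, but the lowest torpid hamsters lay close to the highest normothermic ones. The increase was 1.23-fold (95% interval 1.11 to 1.36; log2(FC) 0.30 ± 0.066 (SE), adjusted p = 0.0447). The call was lost in 6 of the 8 fits with 1 hamster left out, namely without SP-HT 10 (adjusted p = 0.115), SP-HT 26 (0.0959), SP-NT 19 (0.0823), SP-NT 36 (0.0891), SP-NT 37 (0.0947) or SP-NT 38 (0.130), with log2(FC) between 0.25 and 0.34 throughout. It was also lost with labelled sex as a covariate (adjusted p = 0.0895), where SP-NT 19 counts as male, and with effective lengths as an offset (0.0731).

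Rora and Rorb, the activating nuclear receptors, had higher means in torpor with overlapping groups. Rora stood at 34.6, 30.8, 47.6 and 30.7 CPM in SP-NT and at 54.2, 57.1, 64.4 and 40.8 CPM in SP-HT. Only SP-NT 37 reached into the range of the torpid hamsters, above SP-HT 33. The difference was 1.51-fold (95% interval 1.18 to 1.92), the largest among the members on the log2 scale at 0.59 ± 0.16 (SE), and did not pass the threshold (adjusted p = 0.0835). It passed without SP-HT 33 (log2(FC) 0.71, adjusted p = 0.0424), without SP-NT 37 (0.76, adjusted p = 0.0301) and in DESeq2 (0.60, adjusted p = 0.00752). Rorb stood at 21.3, 18.4, 24.3 and 20.5 CPM in SP-NT and at 25.3, 30.7, 23.6 and 19.4 CPM in SP-HT, a log2(FC) of 0.23 ± 0.13 (SE; adjusted p = 0.387).

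Among the casein kinases, Csnk1e was higher in every torpid hamster, while Csnk1d was level. Csnk1e stood at 86.8, 84.6, 85.0 and 78.7 CPM in SP-NT and at 94.5, 98.2, 91.2 and 100.4 CPM in SP-HT. Although the groups did not overlap, the difference of 1.15-fold (95% interval 1.06 to 1.24; log2(FC) 0.20 ± 0.050 (SE)) did not pass the threshold (adjusted p = 0.0697), and it did so only in DESeq2, with default settings (adjusted p = 0.0104) or with effective lengths (0.0176). Csnk1d stood at 168, 165, 155 and 166 CPM in SP-NT and at 158, 167, 159.6 and 166 CPM in SP-HT. Its fold was 0.994 with a 95% interval from 0.931 to 1.06, which leaves out the 1.15-fold seen for Csnk1e. In TPM the ratio of Csnk1d to Csnk1e was 1.56 ± 0.0910 (SD, n = 4; 1.46 to 1.68) in SP-NT and 1.29 ± 0.0891 (SD, n = 4; 1.18 to 1.40) in SP-HT, so the groups did not overlap.

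The D-box factors moved little in torpor. Tef stood at 251, 249, 249.7 and 237 CPM in SP-NT and at 219, 236, 230.1 and 228 CPM in SP-HT. All torpid hamsters lay below all normothermic ones, but the groups nearly touched at SP-NT 38 and SP-HT 10, and the log2(FC) of -0.11 ± 0.041 (SE) did not pass (adjusted p = 0.175). Hlf ranged from 12.3 to 20.3 CPM in SP-NT and from 13.6 to 16.9 CPM in SP-HT, with a log2(FC) of -0.11 ± 0.14 (SE; adjusted p = 0.736). Nfil3 stood at 6.32, 5.45, 6.39 and 5.20 CPM in SP-NT and 6.57, 6.13, 5.36 and 6.18 CPM in SP-HT, and its interval of 0.862 to 1.25-fold leaves room for a change of either sign.

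**Figure D2:**
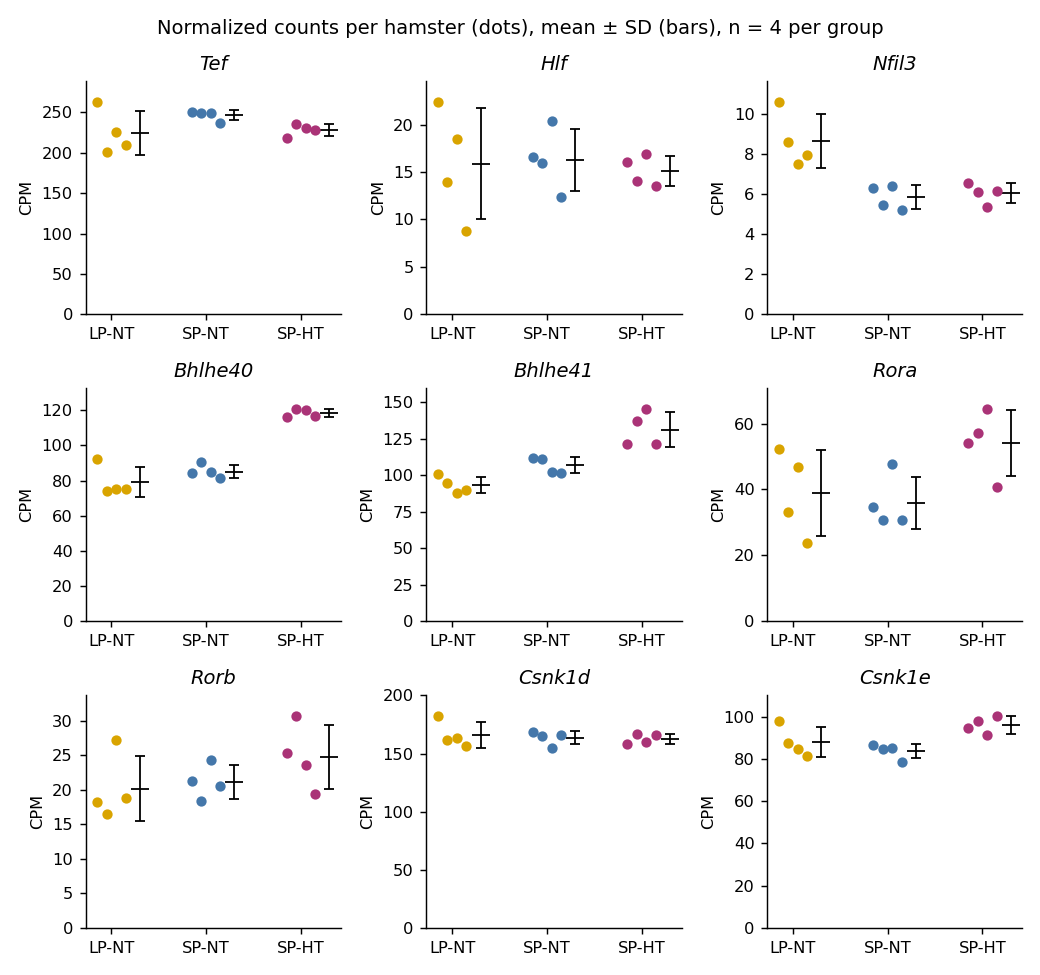
CPM (TMM over 12 hamsters, axes from 0) of the 9 members in LP-NT, SP-NT and SP-HT, 1 dot per hamster, with the mean and SD (n = 4) at the right of each group. Bhlhe40 separates SP-HT (116 to 121 CPM) from both normothermic groups (at most 92.0 CPM), Nfil3 separates LP-NT from both SP groups, and Hlf and Rora spread most within LP-NT.

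The torpor differences differed in how firmly they held. Bhlhe40 passed in every setting, whereas the calls of Bhlhe41 and Rora depended on the test and on single hamsters, that of Csnk1e depended on the test, and Tef passed in none.

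**Figure D3:**
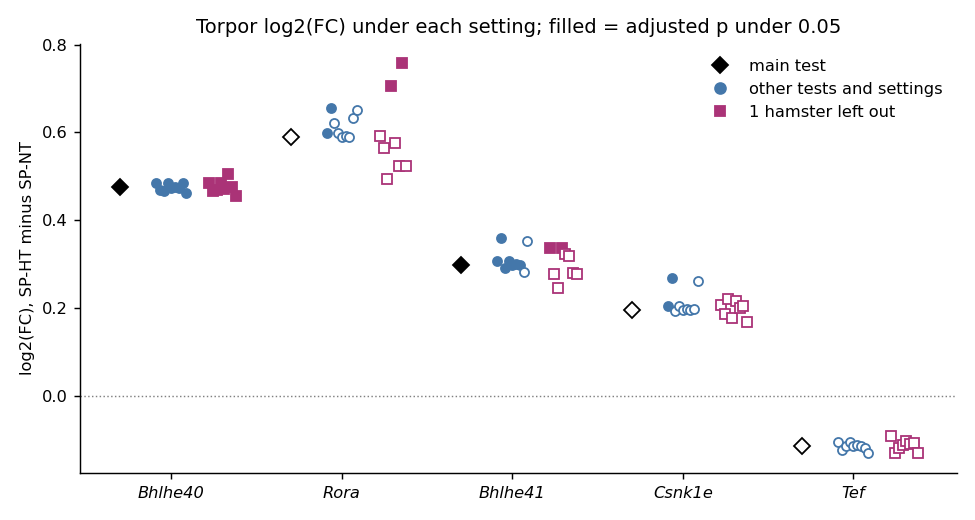
Log2(FC) of SP-HT minus SP-NT for 5 members under the main test (diamonds), 9 other tests and settings (circles) and with each of 8 hamsters left out (squares); filled symbols have an adjusted p under 0.05. Only Bhlhe40 is filled throughout, between 0.46 and 0.50.

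Markers of cell types and brain regions also varied among these hamsters. The summed level of 3 oligodendrocyte markers (Mbp, Mog and Mag) ranged from 2227 to 3034 CPM in SP-NT and from 2423 to 4298 CPM in SP-HT. In SP-HT it was highest in 26 and 10, the hamsters that also had the most Bhlhe41 and Rora in CPM. In TPM, SP-HT 02 had the most of both (75.9 and 59.5 TPM). The other groups did not share this order. SP-NT 37 had the most Rora (47.6 CPM) and the lowest sum of its group (2227 CPM). LP-NT 03 had the highest sum (3253 CPM) and the lowest Bhlhe41 (88.1 CPM) of its group. The 13 hypothalamic markers summed to 464 to 692 CPM in SP-NT and to 357 to 548 CPM in SP-HT. Of these 13, 0 passed the test and 1 had a positive log2(FC), with a median of -0.19 beside -0.0027 over all genes. The 7 markers of the suprachiasmatic nucleus, of which Avp gave the largest share, summed to 219 to 370.3 CPM in SP-NT and to 136 to 244 CPM in SP-HT, and 0 of the 7 passed the test. Their median log2(FC) was -0.21, with 1 of the 7 positive, and Avp belongs to both lists. Of 8 markers of cortex, striatum and thalamus, 1 passed, the striatal dopamine receptor Drd1, with a lower level in the torpid hamsters (log2(FC) of -0.58, adjusted p = 0.0232). The median log2(FC) of the 8 was -0.068. The part of these markers in the values of Bhlhe40, Bhlhe41, Rora and Csnk1e was not tested.

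Rora and Hlf had the largest coefficients of variation among the members in LP-NT (33.4% and 36.8%) and in SP-NT (22.3% and 20.1%), but not in SP-HT (18.3% and 10.3%), where Rorb had 19.0%. In LP-NT, replicates 01, 02, 03 and 05 held 52.3, 33.1, 46.9 and 23.7 CPM of Rora and 22.4, 14.0, 18.4 and 8.77 CPM of Hlf, the same order for both. Tcf7l2, a transcription factor that marks the thalamus, which the dissection was meant to remove, had that order too, with 97.5, 69.9, 87.1 and 48.0 CPM. In SP-NT the order was again shared, with Tcf7l2 at 82.8, 68.4, 97.2 and 58.7 CPM. In SP-HT, Tcf7l2 lay between 85.0 and 87.9 CPM while Rora ranged from 40.8 to 64.4 CPM, and Tcf7l2 did not pass the torpor test (log2(FC) 0.16, adjusted p = 0.540). The part of thalamic tissue in the values of Rora and Hlf was not tested.

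**Figure D4:**
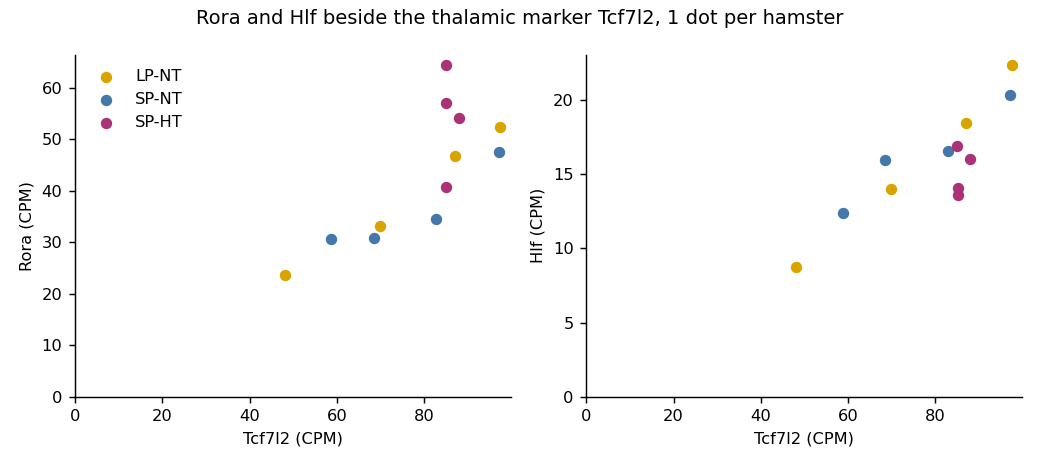
CPM of Rora (left) and Hlf (right) against CPM of the thalamic marker Tcf7l2, 1 dot per hamster, coloured by group. In LP-NT and SP-NT both genes follow the order of Tcf7l2 (48.0 to 97.5 CPM), while the SP-HT hamsters share nearly the same Tcf7l2 (85.0 to 87.9 CPM) and differ in Rora (40.8 to 64.4 CPM).

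Photoperiod was examined by comparing the normothermic groups SP-NT and LP-NT. Of 16199 genes, 6 or 0.037% passed an adjusted p of 0.05, and 0 of the 9 members did so in edgeR, in DESeq2 or in limma. An unadjusted p under 0.05 was reached by 2 members, Nfil3 and Bhlhe41, and the same 2 had groups that did not overlap, against 3.44% of all genes. The median log2(FC) of the members was 0.034, beside -0.0024 over all genes.

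Nfil3, the D-box repressor, stood at 10.6, 8.59, 7.51 and 7.95 CPM in LP-NT and at 6.32, 5.45, 6.39 and 5.20 CPM in SP-NT. Every LP-NT hamster was above every SP-NT hamster, and LP-NT 01 was the highest. The SP-NT level was 0.674 of that in LP-NT (95% interval 0.546 to 0.832; log2(FC) -0.57 ± 0.14 (SE)), with an adjusted p of 0.715 in edgeR and 0.0975 in DESeq2. Without LP-NT 01 the log2(FC) was -0.46 (adjusted p = 0.824). The TPM of Tef and Hlf together was 10.8 ± 1.25 (SD, n = 4; 9.63 to 12.6) times that of Nfil3 in LP-NT, 17.5 ± 1.35 (16.3 to 18.8) times in SP-NT and 15.5 ± 1.65 (13.7 to 17.7) times in SP-HT. The range in LP-NT thus lay below that of both SP groups.

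Bhlhe41 stood at 101, 94.3, 88.1 and 90.1 CPM in LP-NT, below every SP-NT hamster, with LP-NT 01 and SP-NT 38 only about 1 CPM apart. The log2(FC) was 0.19 ± 0.061 (SE; adjusted p = 0.913, edgeR). Bhlhe40 stood at 92.0, 73.9, 75.1 and 75.2 CPM in LP-NT, where LP-NT 01 was above all SP-NT hamsters and the others were below them. Its log2(FC) was 0.10 ± 0.078 (SE; adjusted p = 0.913), and 0.19 without LP-NT 01, which did not pass either.

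The other members gave log2(FC) between -0.12 and 0.13 for photoperiod. Tef stood at 263, 201, 226 and 209.9 CPM in LP-NT, a spread that took in every SP-NT hamster (log2(FC) 0.13, adjusted p = 0.913). For Csnk1d, with 182, 162, 163 and 156 CPM in LP-NT, the interval of 0.898 to 1.08-fold allows only a small difference, and for Csnk1e, with 98.0, 87.7, 84.7 and 81.4 CPM, it was 0.859 to 1.05-fold. For Hlf (0.697 to 1.51-fold), Rora (0.645 to 1.31-fold) and Rorb (0.828 to 1.32-fold) the intervals were wide. Rorb, with 18.2, 16.5, 27.2 and 18.9 CPM in LP-NT, overlapped throughout.

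Torpid hamsters in short photoperiod were also set against LP-NT hamsters, a comparison in which photoperiod, body temperature and implantation differ together and which shares its samples with the other comparisons. Of 16157 genes, 221 or 1.37% passed, 57 or 0.353% with a higher level in SP-HT, and 10.6% had groups that did not overlap. Bhlhe40 and Bhlhe41 were again the 2 members of 9 that passed, both higher in SP-HT, and 3 members had groups that did not overlap. Bhlhe40 was 50.5% higher (log2(FC) 0.59 ± 0.074 (SE), 95% interval 0.43 to 0.75, adjusted p = 0.00792, edgeR), and 0.67 on the log2 scale without LP-NT 01 (adjusted p = 0.000412). Bhlhe41 was 41.4% higher (log2(FC) 0.50 ± 0.075 (SE), 95% interval 0.33 to 0.67, adjusted p = 0.0132), a call that was lost without LP-NT 03 (adjusted p = 0.0572) or SP-HT 10 (0.0532).

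Nfil3 was lower in SP-HT than in LP-NT in every hamster, at 0.703 of the level (95% interval 0.569 to 0.869; log2(FC) -0.51 ± 0.14 (SE)), with an adjusted p of 0.108. It passed in DESeq2 (adjusted p = 0.0349), in DESeq2 with effective lengths (0.0479) and with all 12 hamsters in 1 fit (0.0449). The remaining members gave log2(FC) of 0.48 for Rora (adjusted p = 0.331), 0.30 for Rorb (0.449), 0.13 for Csnk1e (0.393), 0.029 for Tef, -0.021 for Csnk1d and -0.060 for Hlf. For each of these 6 genes the groups overlapped.

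**Figure D5:**
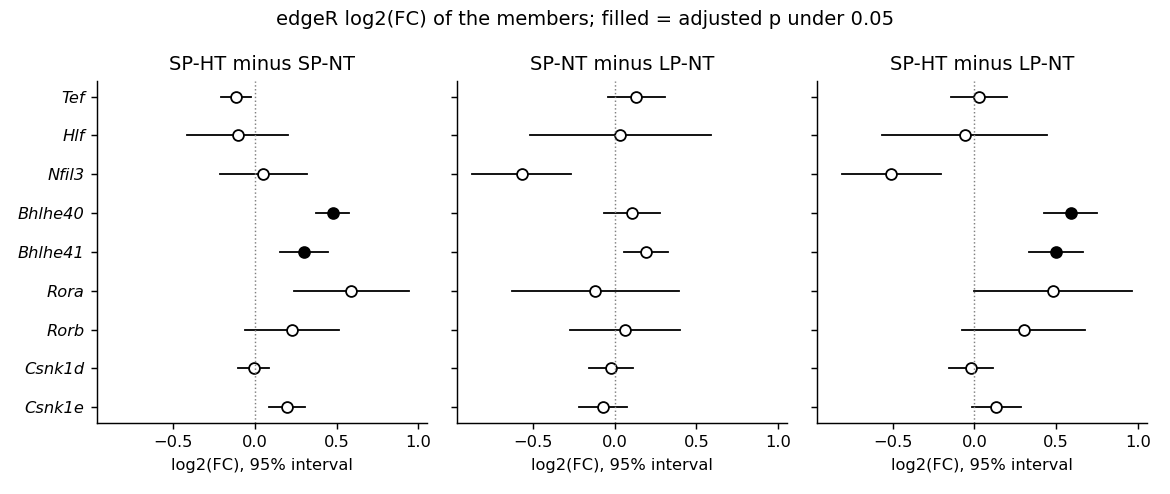
Log2(FC) with 95% intervals from edgeR for the 9 members in the comparisons SP-HT minus SP-NT, SP-NT minus LP-NT and SP-HT minus LP-NT; filled dots have an adjusted p under 0.05. Bhlhe40 and Bhlhe41 are filled in both comparisons with SP-HT (0.47 and 0.30 against SP-NT, 0.59 and 0.50 against LP-NT), and none is filled for photoperiod.

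The core clock genes to which these members connect were looked at in the same fits. Of 11 tested, 1 was higher and 1 lower in torpor. Ciart, an E-box target and repressor of CLOCK and BMAL1, rose from 8.6, 10.0, 9.4 and 8.6 CPM in SP-NT to 12.2, 12.2, 12.3 and 12.2 CPM in SP-HT (log2(FC) 0.41 ± 0.088 (SE), adjusted p = 0.0369). Per2, a partner of the casein kinases, fell from 45.1, 41.5, 50.5 and 53.1 CPM to 33.6, 36.5, 29.1 and 36.6 CPM (log2(FC) -0.49 ± 0.096 (SE), adjusted p = 0.0292). The call of Ciart was lost in all 8 fits with a hamster left out (adjusted p between 0.0583 and 0.109), where its log2(FC) was 0.39 to 0.46, and in 2 of 9 other settings. That of Per2 was lost in 6 of 8 fits with a hamster left out (0.034 to 0.0827). It was also lost in 2 of 9 other settings (adjusted p up to 0.286), 1 of them DESeq2 with effective lengths (log2(FC) -0.24, adjusted p = 0.228). The other E-box targets had log2(FC) of 0.21 for Per1 (adjusted p = 0.359), -0.14 for Per3 (0.551), 0.15 for Nr1d1 (0.242) and -0.044 for Nr1d2 (0.811).

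For photoperiod, 0 of the 11 core clock genes passed in edgeR and 5 had an unadjusted p under 0.05. Per3 had the largest difference of the E-box targets (log2(FC) 0.62, adjusted p = 0.437), and passed in DESeq2 (0.63, adjusted p = 0.00389). Per1 (0.27), Per2 (0.31), Ciart (0.32), Nr1d1 (0.041) and Nr1d2 (0.25) had positive values that did not pass. Between SP-HT and LP-NT, Ciart alone of the 11 passed in edgeR (log2(FC) 0.75, adjusted p = 0.0102), while Per1 (0.49, adjusted p = 0.141), Per2 (-0.16, 0.411), Per3 (0.50, 0.109), Nr1d1 (0.20, 0.411) and Nr1d2 (0.21, 0.301) did not. Relative to Nr1d1 and Nr1d2, the REV-ERB receptors, the summed TPM of Rora and Rorb was 0.347 ± 0.0701 (SD, n = 4) for LP-NT, 0.301 ± 0.0499 for SP-NT and 0.408 ± 0.0824 for SP-HT, with overlapping ranges.

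The enzymes that act beside CSNK1D and CSNK1E on PER and CRY proteins gave 0 calls in any of the 3 comparisons with edgeR. In torpor, 1 of 7 other casein kinases and 5 of 12 other clock kinases, phosphatases and ubiquitin ligases had an unadjusted p under 0.05. Among the latter, 11 of 12 had a positive log2(FC), with a median of 0.12 beside -0.0027 over all genes. The counts by unadjusted p have no share of all genes beside them. Fbxw11, a ligase subunit that recognizes phosphorylated PER, came nearest to the threshold (log2(FC) 0.17, adjusted p = 0.0890), and Csnk1a1, the casein kinase 1 alpha, had a log2(FC) of 0.12 (adjusted p = 0.219). Of 7 genes known as targets of the D-box factors or of the clock output, 0 passed in any comparison, and 1, Tsc22d3, had an unadjusted p under 0.05 in torpor (log2(FC) -0.19, adjusted p = 0.259). The median log2(FC) of these targets in torpor was 0.00071.

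The effective length, which RSEM averages over the transcripts of a GeneID weighted by their abundance, shows whether the mix of transcripts moved. In torpor, 16 of 12289 genes or 0.13% changed in length (limma, adjusted p), and 0 of the 7 members with more than 1 transcript did so, with 0 at an unadjusted p under 0.05. Csnk1e (-5.03%, adjusted p = 0.542), Rora (-5.04%, 0.799) and Bhlhe41 (-4.31%, 0.869) had the largest differences, and in each of them 1 hamster decided the mean. For Bhlhe41 the length was 4323 bases in SP-HT 02 against 5726 to 5922 in the other torpid hamsters, and for Rora it was 2464 bases in SP-HT 02 against 3079 to 3196. SP-HT 02 therefore had the highest Bhlhe41 of the torpid hamsters in TPM (75.9) and the lowest in CPM (121). For Csnk1e it was SP-HT 10 that stood out, with 2329 bases against 2592 to 2654. Bhlhe40, Tef and Csnk1d differed in mean length by less than 1%.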

How the data were processed

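Per the labels and the study's methods, the authors pooled all reads into 1 de novo assembly, kept transcripts with a mouse protein hit, grouped them by mouse GeneID and quantified each hamster with Bowtie 1.3.0 and RSEM 1.3.1 after FastQC 0.11.9 and Trim Galore 0.6.6. The deposited values used were RSEM expected counts, TPM and effective lengths per GeneID. A record can join isoforms and paralogues with the same best hit. The files hold no symbols: GeneIDs were named from knowledge, and all 15 listed genes that the study also names matched its values in size, the sign being left out of the match because it was opposite for torpor.

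After rounding of the expected counts, genes with 10 or more counts in total over the 8 hamsters compared were kept. Groups were tested with edgeR 4.0.16 (quasi-likelihood, TMM, R 4.3.3), Benjamini-Hochberg over all genes and a threshold of 0.05. Effective lengths (mean of at least 50 counts, more than 1 transcript) were tested with limma 3.58.1 on the log2 scale. DESeq2 1.42.0, voom and other settings were alternatives. For torpor and photoperiod, the main edgeR test, default DESeq2 and voom were checked on simulated data, as was the length test for torpor. The other settings and the comparison of SP-HT with LP-NT were not simulated. No 2 libraries of the same group agreed within sampling noise. Totals were 20204979 to 24186918 counts. All members, the Per, Nr1d and Ciart genes, Rbm3 and Cirbp, and listed genes past the threshold are named, other names having been chosen after their values were seen. Members and lists were chosen with earlier results of these data known. A further core clock gene and a further marker gene are not reported here.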

Additional observations from a re-analysis of the deposited data

Results flagged for a closer look

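Of 27 groups of 4 hamsters (9 members in 3 groups), 2 held a hamster that lay far from the others by Dixon's test, and chance flags about 1 in 20 groups. Bhlhe40 was at 92.0 CPM in LP-NT 01 and between 73.9 and 75.2 CPM in the other LP-NT hamsters. LP-NT 01 also had the highest Tef, Hlf, Nfil3, Bhlhe41, Rora, Csnk1d and Csnk1e of its group. Tef was at 237 CPM in SP-NT 38 and between 249 and 251 CPM in the other SP-NT hamsters. Its level in SP-NT 38 was still above all SP-HT hamsters.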

How the results depend on the processing

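Over the 9 members and 3 comparisons, 9 other tests and settings gave 243 log2(FC), of which 6 changed sign, 2 lost and 7 gained a call, and leaving out 1 hamster gave 216, of which 17 changed sign, 8 lost and 2 gained a call. No member that passed the main test changed sign. In torpor, the genes called were 1017 in DESeq2, 759 in DESeq2 with effective lengths, 242 with sex as a covariate, 147 with lengths as an offset and 104 (without SP-NT 38) to 318 (without SP-HT 33) with a hamster left out, against 389. The members called were 4, 4, 1, 1 and 1 to 3, against 2. For photoperiod DESeq2 called 33 genes and 32 with lengths, against 6. For SP-HT against LP-NT the genes called were 706, 623, 427 with voom, 612 with all 12 hamsters in 1 fit, 103 with the offset and 55 (without SP-HT 26) to 200 (without LP-NT 01), against 221, with 1 to 2 members called when a hamster was left out. The cause was not tested beyond the smaller groups.

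Changes of sign had small values. In torpor Csnk1d was 0.00044 in DESeq2 and 0.00062 with median-of-ratios factors, and Cirbp was 0.20 in both length settings. Csnk1d was 0.012 in voom for photoperiod and 0.0093 in voom for SP-HT against LP-NT, where Hlf was 0.066 in voom, Tef -0.0092 with sex and Per2 0.12 in both length settings. With a hamster left out, torpor values ran from -0.031 to 0.0069 for Csnk1d, -0.11 to 0.0097 for Nr1d2, -0.076 to 0.019 for Cirbp and -0.22 to 0.020 for Hlf. Photoperiod values ran from -0.30 to 0.055 for Rora, -0.048 to 0.028 for Csnk1d, -0.17 to 0.25 for Hlf, -0.021 to 0.24 for Rorb and -0.017 to 0.15 for Nr1d1. SP-HT against LP-NT ran from -0.26 to 0.14 for Hlf, -0.046 to 0.023 for Csnk1d and -0.019 to 0.11 for Tef. Log2 lengths in torpor ran from -0.11 to 0.045 for Bhlhe41, -0.11 to 0.013 for Rora and -0.0045 to 0.0044 for Bhlhe40.

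No paired analysis was possible because each hamster was sampled in a single group. The number 02 in SP-HT and in LP-NT belongs to different hamsters. With 4 hamsters a group, a single clock time and 1 tissue piece each, small differences such as that of Csnk1e could not be settled.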
